A study of Mus musculus with 2 samples.

Results

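The cJUN peaks that lie close to a gene are the subject here. In a list of 2741 cJUN peaks from embryonic mouse intestine, each peak carries its nearest genes with a signed distance, and a peak was kept when the smallest absolute distance was 10000 bp or less. There were 228 such peaks (8.32%, exact Clopper-Pearson 95% interval 7.31 to 9.42), beside 2407 peaks with a nearest gene farther away and 106 with no gene listed. The choice rests on distance alone, and fold, score, length, side and kind of gene were not used. Kind of gene is still not free of the choice, because it can go with gene spacing, on which distance depends. The list was made from 1 cJUN chromatin immunoprecipitate (ChIP) and 1 input library. Both came from whole intestines dissected at E14.5 from 1 litter of 8 wild type embryos of the C57BL/6 strain and kept for 24 h in transwell culture. The immunoprecipitate used a rabbit polyclonal cJUN antibody, and the input was sheared DNA that saw no antibody. Each group had 1 library, so there is no replicate error and no test between conditions. The intervals below cover counting error within this list only, and peaks of 1 library are not replicates. The depth of the libraries is unknown. The whole organ holds epithelium, mesenchyme, nerve cells, vessels and blood, and a peak cannot be assigned to any of them.

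cJUN is a basic leucine zipper (bZIP) protein that binds DNA in pairs with Fos, Atf or other Jun proteins as the AP-1 transcription factor. AP-1 binds a short palindrome, TGANTCA, and pairs with Atf or Creb proteins can bind the longer form TGACGTCA. It is activated by Jun N-terminal kinases and acts both from promoters and from distant enhancers, and the latter hold most AP-1 sites in many tissues. A promoter is the stretch around the start site of a gene, where RNA polymerase assembles.

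The side of each peak could be read from the list itself. Of 935 genes listed at several peaks on 1 chromosome, all but 8 placed their start at a single position to within 1 bp, with the distance counted from the peak midpoint. In 500 of them this held when positive distances ran along the chromosome and in 427 when they ran against it. Strand was known from RefSeq for 668 of these genes, and for 663 (99.3%) it was the forward strand in the former case and the reverse strand in the latter. Negative distances are therefore given as upstream of the start site and positive ones as downstream. The gene 9230019H11Rik is 1 of the 5 exceptions, so the side of its peaks is uncertain. A downstream peak can lie inside the gene or past its end, and the gene structure under a peak (exon, intron, UTR) was not analysed here.

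Promoter windows are shown for a few genes with a peak close to their start, as the sequence around the start and not that under the peak. They are RefSeq windows of 300 bases, 250 before and 50 after the start, on GRCm38.p6, while peak positions are mm9. The window of each gene was picked by its spacing to the other gene listed at the peak, which differed from the spacing in the list by 120 bp for Fam214b, 19 bp for Ddit3, 6 bp for Fmo4 and 0 bp for Vmn1r158, Crebzf and Lonp2. For Fam214b capitals mark a run of 17 copies of the hexamer AGAGGC. For Vmn1r158 and Ddit3 they mark TGANTCA, and for Crebzf, Lonp2 and Fmo4, which hold neither AP-1 motif, they mark CG dinucleotides. Crebzf, Lonp2 and Fmo4 were picked after their values were seen, as CG-rich and CG-poor examples, and the windows of Rex2, Gm2046, Tas2r134 and Gm4214, which also hold neither motif, are not printed. Ddit3 was added after its values were seen, as a bZIP gene with a peak farther off. The windows lie at chr4:43046171-43046470 (minus strand) for Fam214b, chr7:22790733-22791032 (minus) for Vmn1r158, chr7:90442531-90442830 (plus) for Crebzf, chr8:86623793-86624092 (plus) for Lonp2, chr1:162812500-162812799 (minus) for Fmo4 and chr10:127290543-127290842 (plus) for Ddit3.
Fam214b: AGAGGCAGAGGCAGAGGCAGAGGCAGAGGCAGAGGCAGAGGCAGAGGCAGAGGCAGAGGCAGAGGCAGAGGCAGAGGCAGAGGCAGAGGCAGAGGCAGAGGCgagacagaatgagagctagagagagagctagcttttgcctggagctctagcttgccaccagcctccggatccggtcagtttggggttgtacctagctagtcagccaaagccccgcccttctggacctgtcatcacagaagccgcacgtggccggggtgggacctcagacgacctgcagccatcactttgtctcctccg
Vmn1r158: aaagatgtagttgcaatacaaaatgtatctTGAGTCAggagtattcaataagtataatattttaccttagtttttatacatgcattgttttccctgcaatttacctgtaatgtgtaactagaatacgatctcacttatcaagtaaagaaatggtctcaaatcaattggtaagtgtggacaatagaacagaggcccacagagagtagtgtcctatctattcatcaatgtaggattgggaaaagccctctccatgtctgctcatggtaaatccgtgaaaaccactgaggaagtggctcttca
Crebzf: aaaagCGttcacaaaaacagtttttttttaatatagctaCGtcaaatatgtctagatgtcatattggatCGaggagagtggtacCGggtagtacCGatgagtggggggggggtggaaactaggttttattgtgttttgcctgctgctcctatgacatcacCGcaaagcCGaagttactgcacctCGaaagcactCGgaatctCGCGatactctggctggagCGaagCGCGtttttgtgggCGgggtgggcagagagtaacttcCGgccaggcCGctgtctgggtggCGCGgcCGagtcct
Lonp2: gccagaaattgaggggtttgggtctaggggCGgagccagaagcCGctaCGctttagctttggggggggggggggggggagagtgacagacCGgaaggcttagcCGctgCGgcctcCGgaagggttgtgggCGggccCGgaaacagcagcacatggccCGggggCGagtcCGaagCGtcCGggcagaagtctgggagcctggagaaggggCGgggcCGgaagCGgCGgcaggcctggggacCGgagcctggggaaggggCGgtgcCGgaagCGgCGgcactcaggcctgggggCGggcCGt
Fmo4: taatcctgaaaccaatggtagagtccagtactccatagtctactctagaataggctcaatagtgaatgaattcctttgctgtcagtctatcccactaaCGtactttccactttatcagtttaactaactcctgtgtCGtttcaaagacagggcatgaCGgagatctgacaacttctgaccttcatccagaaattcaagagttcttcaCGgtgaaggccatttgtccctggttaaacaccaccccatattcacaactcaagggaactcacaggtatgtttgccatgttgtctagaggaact
Ddit3: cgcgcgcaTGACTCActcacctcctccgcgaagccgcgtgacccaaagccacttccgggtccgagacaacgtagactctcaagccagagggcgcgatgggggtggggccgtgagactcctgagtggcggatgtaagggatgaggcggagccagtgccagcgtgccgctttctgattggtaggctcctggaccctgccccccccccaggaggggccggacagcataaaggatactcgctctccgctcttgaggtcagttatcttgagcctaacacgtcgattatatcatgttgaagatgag

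The window of Fam214b holds a tandem repeat near its peak. The peak spanned 366.5 to 189.5 bp upstream of the start, at chromosome 4 from 43059281 to 43059458, with a fold over background of 22.11 and a score of 84.31. The score is 10 times the −log10 p of the authors' peak caller. In the RefSeq window the hexamer run fills bases 1 to 102, and it ends 149 bp before the start site. The 120 bp mismatch in spacing is longer than the stretch that peak and window share, so whether and how far the peak overlaps the run is not known. A run of 5 or more such hexamers, searched on both strands after this one was seen, occurs in 5 of 32851 RefSeq windows (0.0152%). The treatment of reads that align to several places is not given in the sources used here, and its part in this peak was not tested.

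By the distances in the list, the peaks of the other printed genes lay outside their windows. The Vmn1r158 peak began 92.5 bp downstream of the start and ended at 227.5 bp, and the TGANTCA match of that window lies 220 bp upstream. Vmn1r158 is a vomeronasal pheromone receptor gene, and the peak had a fold of 10.82 and scored 51.77. The peak at Crebzf, which encodes a bZIP protein, spanned 747.5 to 816.5 bp upstream of a start with 20 CG dinucleotides in its window, and it had a fold of 5.89 beside a score of 98.95. Lonp2, the gene of a peroxisomal protease, had its peak 643 to 821 bp downstream of a start with 25, at a fold of 22.11 and a score of 62.77. Fmo4, a flavin monooxygenase gene, had its peak 559.5 to 644.5 bp downstream of a start with 4, at a fold of 13.16 and a score of 84.90. The range from CG-rich to CG-poor follows from how these 3 examples were picked. The Ddit3 window has a TGANTCA match 242 bp upstream of the start, while the peak lay 7998 bp downstream.

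**Figure D1:**
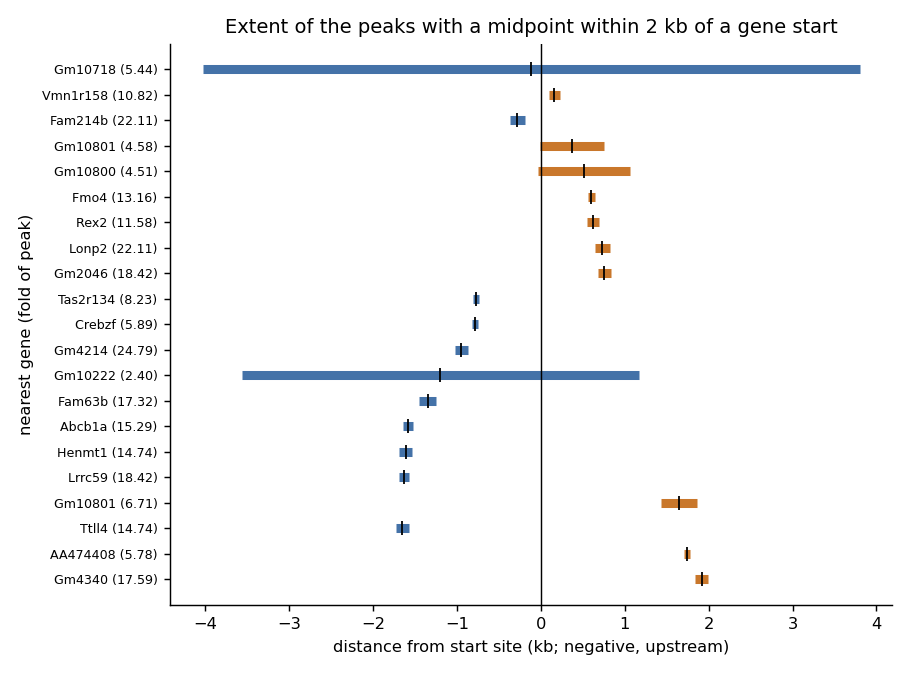
Extent of the 21 peaks whose midpoint lies within 2 kb of a gene start, on a distance axis in kb with negative values upstream. Thick lines run from peak start to peak end, ticks mark midpoints, blue is upstream and orange downstream, and the fold of each peak follows the gene name. Only the long lines of Gm10718, Gm10801, Gm10800 and Gm10222 cross the start site.

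Peaks that cover a start site were few and long. A long peak reaches a start from farther off than a short one, so the lengths follow in part from the definition. Of the 228 peaks, 5 overlapped the start of their nearest gene, and the nearest gene of each had a Gm symbol, which marks a predicted gene. They were 19519 bp long at Gm10720, 7824 bp at Gm10718, 4729 bp at Gm10222, 1100 bp at Gm10800 and 763 bp at Gm10801. Their folds were 6.06, 5.44, 2.40, 4.51 and 4.58, all below the median of 15.93 for the 228 peaks. RefSeq has Gm10222 as a pseudogene, and the other symbols matched no gene of its table. These peaks are not all separate places. On chromosome 9 the peak at Gm10720 ended at 3019519 and that at Gm10718 began at 3019522. On chromosome 2 those at Gm10801 and Gm10800 both lay between 98502384 and 98507492. The peak at Gm10222 had the lowest fold of the whole list, and its score was 68.90. Where the midpoint lay within 1 kb of a start, 12 peaks were found, and another 9 lay between 1 and 2 kb. Besides the genes already described, the former include Rex2, a zinc finger gene (620 bp downstream, fold 11.58), Gm2046 (754 bp downstream, 18.42), Tas2r134 and Gm4214. Among the latter was the peak of Abcb1a, which encodes a drug efflux pump of the gut and other barriers. It lay 1584 bp upstream at fold 15.29 and score 59.35. The peak of Lrrc59, a ribosome-binding protein gene of the endoplasmic reticulum, lay 1634 bp upstream with a fold of 18.42. Ttll4, a tubulin polyglutamylase gene, had 1 peak at 1651 bp and another at 2925 bp upstream, with folds of 14.74 and 17.59. Henmt1, the gene of a methyltransferase of small RNAs, had a peak 1609 bp upstream with a fold of 14.74. Fam63b had one 1349 bp upstream with a fold of 17.32. The peaks nearest AA474408 and Gm4340 lay downstream, at 1745 and 1916 bp, with folds of 5.78 and 17.59. Apart from those of Gm10222 and Gm10801, the peaks between 1 and 2 kb scored 51.25 to 67.72.

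Peaks were sparser near start sites than some kilobases away. Up to 1 kb there were 12 peaks per kb of distance, from 1 to 2 kb 9, from 2 to 5 kb 17.7 and from 5 to 10 kb 30.8. Beyond the limit the density was 28.4 per kb from 10 to 15 kb, 21.2 from 15 to 20 kb and 18 from 20 to 30 kb. The highest density therefore fell at 5 to 15 kb. The peaks just inside it were at Aoc3 (9990 bp, fold 19.45, score 82.72), Sytl5 (9991 bp, 14.74, 57.34) and Vmn1r94 (9996 bp, 22.11, 63.78). Just outside were peaks at Dpyd (10026 bp, 18.42, 68.19), Smim15 (10129 bp, 19.19, 65.78) and Plekhm3 (10137 bp, 14.74, 56.93).

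**Figure D2:**
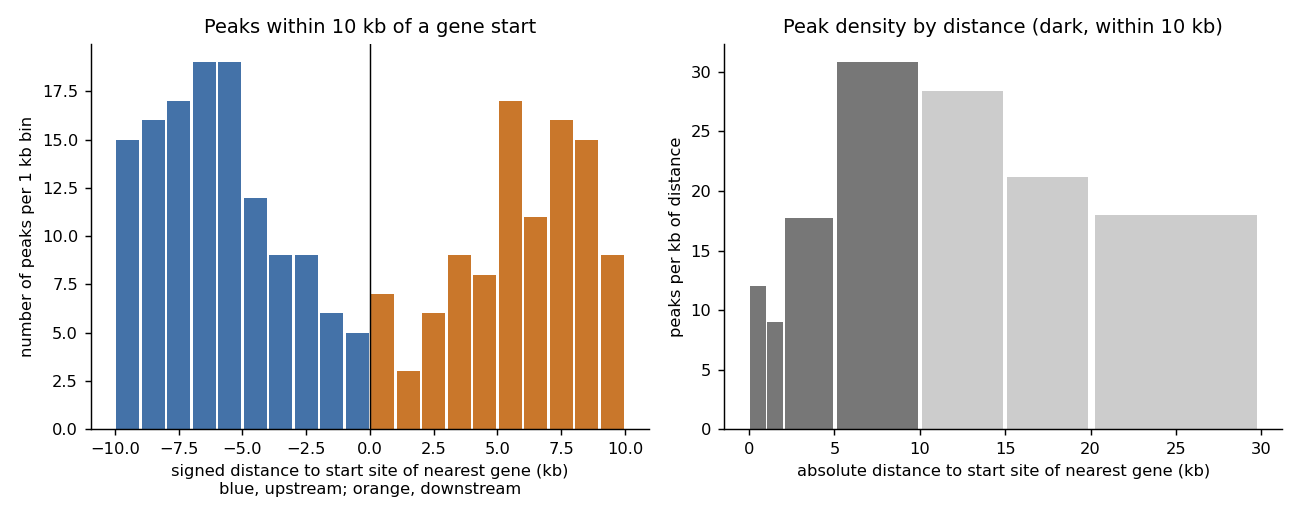
Left, the 228 peaks by signed distance in kb to the start of the nearest gene, in bins of 1 kb, with upstream bins in blue and downstream bins in orange. Right, peaks per kb of absolute distance out to 30 kb, with the bins within 10 kb in dark grey. The density rises from 12 and 9 per kb in the first bins to 30.8 at 5 to 10 kb and then falls.

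Upstream peaks were somewhat more frequent than downstream ones. Of the 228 peaks, 127 (55.7%, interval 49.0 to 62.3) lay upstream, against 1167 of the 2407 farther peaks (48.5%, 46.5 to 50.5). The interval of the near peaks includes equal shares. The upstream share was 56.6% at 2 to 5 kb, 55.8% at 5 to 10 kb and 59.2% (50.6 to 67.3) at 10 to 15 kb, and it was 44.4% (37.1 to 52.0) at 20 to 30 kb. Upstream and downstream peaks were alike in strength, with median folds of 15.86 and 15.97 and median scores of 62.71 and 62.77. A second gene was listed at 219 of the 228 peaks. In 61 of these (27.9%, 22.0 to 34.3) the peak lay upstream of both genes, as between genes transcribed away from each other, against 374 of 1838 farther peaks with 2 genes (20.3%, 18.5 to 22.3). The 6 peaks at 9230019H11Rik, whose side is uncertain, are counted in both the 127 and the 61.

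A second gene is never nearer than the first, so the limit on distance itself favours nearer second genes at these peaks, and the following values are a description. Their median distance was 52.4 kb (order-statistic 95% interval 43.0 to 61.3), against 244 kb for the farther peaks, and a single gene was listed at 3.95% against 23.6%. At 19 peaks the second gene was itself within 10 kb, and 5 of these were picked as examples after their values were seen. One such peak lay 2207 bp upstream of Angptl6, an angiopoietin-like secreted protein gene, and 6241 bp upstream of Ppan, a ribosome biogenesis gene. Another lay 3349 bp downstream of the start of Sdf2l1, a chaperone-associated gene of the endoplasmic reticulum. Fgf22, a fibroblast growth factor gene, lay 4684 bp from a peak that was also 7118 bp from Rnf126, a ubiquitin ligase gene. Its fold was 6.29 and its score 55.39. The lipid carrier gene Apoc2 and Clptm1 shared a peak at 4731 and 7103 bp. Sncb, the beta-synuclein gene, and Eif4e1b, an oocyte translation factor gene, shared one at 8492 and 8914 bp, upstream of both.

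Most near peaks were about as strong as the rest of the list, and a small group had very high scores. The median fold was 15.93 (interval 14.74 to 17.59), against 16.75 (15.99 to 17.25) for farther peaks, and the median score was 62.73 (61.07 to 64.47) against 61.07 (60.60 to 61.44). The median length was 150 bp against 149. A score below 60 was found for 88 of the 228 peaks (38.6%), beside 44.0% of all 2741 peaks. At the upper end 18 peaks (7.89%, 4.75 to 12.2) scored at least 100, beside 4.63% of all peaks. Folds below 10 were found at 43 peaks (18.9%, 14.0 to 24.6), beside 12.1% of all peaks, and lengths of 500 bp or more at 14 (6.14%, 3.40 to 10.1), beside 2.88%. A fold of 20 or more was found at 35 peaks (15.4%), beside 16.4% of all. Groups of at least 5 peaks in which neighbours were no more than 100 kb apart held 16 of the near peaks (7.02%), beside 7.84% of all. Near peaks thus had larger shares at high score, low fold and great length than the list, and about its share of high folds and of clustered peaks. The larger shares count side-by-side peaks of the same locus singly, as at Gm10718, Gm10800, Gm10801 and 9230019H11Rik. The intervals do not allow for this, and the shares were not recomputed by locus, so no excess over separate loci is shown.

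**Figure D3:**
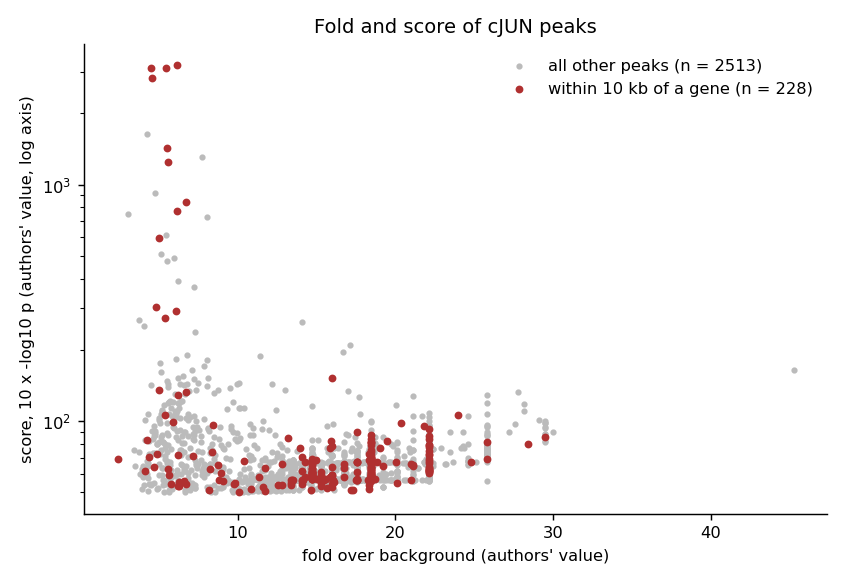
Fold over background against score on a log axis, both as the authors' caller gave them, with 1 point per peak. Red points are the 228 peaks within 10 kb of a gene and grey points all others. The highest scores among the red points sit at folds of 4.51 to 6.71, and the columns of points stand at repeated folds such as 14.74, 18.42 and 22.11.

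The high scores belonged to long peaks of low fold at a few loci. The 18 peaks that scored at least 100 had a median fold of 5.54 and a median length of 671 bp, and 14 of them were nearest a gene with a Gm or RIKEN clone symbol. The latter symbols end in Rik and mark genes known at first only as cDNA clones. Gm10718 had scores of 3189.25 and 3100, Gm10800 of 3100 and 771.06, Gm10801 of 2821.78 and 844.69, and Gm10720 of 291.66. None of these 4 symbols matched a gene of the RefSeq table. On chromosome 9 the peak at Gm10720 began at 3000000, and the last peak at Gm10718 ended at 3038415. The part of reads that align to several places in the scores of these 4 was not tested. The RIKEN gene 9230019H11Rik held 6 peaks within 7.37 kb on chromosome 10, between 7229298 and 7236668, with folds of 4.83 to 5.59 and scores of 62.71 to 1433.76. Outside these loci, Tmem125, a transmembrane protein gene, had a peak of 1542 bp at 4242 bp upstream at score 1241.44 and fold 5.58. Dnahc14, an axonemal dynein gene, had one of 784 bp at 2340 bp downstream at score 106.40 and fold 5.39. Gm525 had a peak at 8094 bp with a score of 128.64, and Gm18025 one at 3191 bp with 132.31, although RefSeq has the latter symbol on another chromosome.

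Of the 18 high scores, 2 came with a fold above 10, and both were at vomeronasal receptor genes. A peak 7639 bp downstream of the start of Vmn1r214 had a fold of 15.99 and a score of 152.06. Another, 8085 bp upstream of Vmn1r173, had a fold of 23.99 and a score of 106.52. It was the 1 peak of the 228 with both a fold of at least 20 and a score of at least 100.

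Among the highest folds were several named protein-coding genes, the kind nearest to 88.6% of the 228 peaks. Samd7, which encodes a Polycomb-associated protein of photoreceptors, led at fold 29.48 and score 85.75 at 4344 bp upstream. Zfp715, a zinc finger gene, followed at 28.42 and 8565 bp upstream. Tex261 and Atp6v0a2, a subunit gene of the vacuolar proton pump, both had a fold of 25.79, at 3316 and 7660 bp upstream. Gm4214 reached 24.79 at 945 bp upstream, and Vmn1r173, described above, 23.99. A fold of 22.11 was then shared by 21 peaks. Those of highest score among them were at Cpt1c, a carnitine palmitoyltransferase gene of brain (5835 bp downstream, score 92.63), Dpys, the dihydropyrimidinase gene (9614 bp upstream, 86.62), and Fam214b (84.31). The peak at Vmn1r101, 8428 bp upstream, scored 79.60. Peaks of fold 20 or more were 93 to 217 bp long. Of these 35, 2 lay at a Gm or RIKEN symbol, beside 23.7% of the 228 near peaks. Another 8 lay at a chemosensory receptor gene, beside 13.6%.

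Some genes had several near peaks. The 228 peaks fell on 203 different nearest genes, of which 18 had more than 1 peak and together held 43. Prpf39, a splicing factor gene, had 3 peaks within 4.43 kb, at 3129 to 7407 bp upstream, with folds of 15.04 to 18.42. Klhdc4, a kelch-repeat gene, had 3 within 2.65 kb, at 4052 to 6549 bp downstream, with folds of 9.08 to 15.87. The RIKEN gene 9130204L05Rik had 3 within 1.21 kb upstream, with folds of 14.74 to 18.42. None of these 9 peaks scored above 64. Pairs were found at H2-Q4, a class I histocompatibility gene (5390 and 7878 bp upstream), at Ept1, an ethanolamine phosphotransferase gene (5404 and 6885 bp upstream), and at Thada (4181 and 5923 bp downstream). Further pairs lay at Ttll4, Olfr194, Olfr1101, Vmn1r214, Gm18025, AW822073, 3110079O15Rik and 1700048O20Rik. The pair at AW822073 flanked its start at 2437 bp upstream and 2459 bp downstream, with folds of 4.26 and 4.15.

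Most nearest genes were protein-coding. Biotypes came from the RefSeq table, which matched 185 peaks by symbol and 27 by synonym. The gene set used for the listing is not known, and kinds of gene absent from it could not appear. Of the 228 peaks, 202 (88.6%, 83.7 to 92.4) had a protein-coding nearest gene, against 91.5% (90.3 to 92.6) of farther peaks. Pseudogenes made up 7, long noncoding RNA genes 3 and unmatched symbols 16 (7.02%, 4.06 to 11.1, against 3.28%, 2.61 to 4.07). The 16 unmatched symbols had a median fold of 6.15 and a median length of 390 bp, and 7 of them scored at least 100. The 212 matched ones had a median fold of 15.99 and a median length of 150 bp. By the symbol in the list, 31 peaks were at Gm genes (13.6%, 9.43 to 18.7, against 8.85%, 7.74 to 10.1) and 23 at RIKEN clones (10.1%, 6.5 to 14.8, against 6.19%, 5.26 to 7.23). Some of these, such as Gm4214, are protein-coding genes that RefSeq has under another name.

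Chemosensory receptor genes made up a larger share of the near peaks than of all farther peaks together. These are the olfactory, vomeronasal, taste and trace amine receptors, which stand in dense tandem arrays and serve smell and taste. Such receptors were counted by the symbol in the list, so one listed under a Gm or other symbol is not included. They were the nearest gene at 31 of the 228 peaks (13.6%, 9.43 to 18.7), against 80 of 2407 farther peaks (3.32%, 2.64 to 4.12). Olfactory receptors had 18 (7.89%, 4.75 to 12.2, against 1.29%, 0.877 to 1.82), vomeronasal receptors 10 (4.39%, 2.12 to 7.92, against 1.91%, 1.4 to 2.54) and taste or trace amine receptors 3. In 30 of the 31 cases the second listed gene was also a chemosensory receptor, at a median distance of 25 kb, against 58.5 kb for second genes of the other near peaks. The share did not stop at the limit: chemosensory receptors were nearest at 17 of 142 peaks at 10 to 15 kb, 10 of 106 at 15 to 20 kb and 9 of 180 at 20 to 30 kb. Gene spacing moves with the share, and its part was not tested. No random placement was made.

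**Figure D4:**
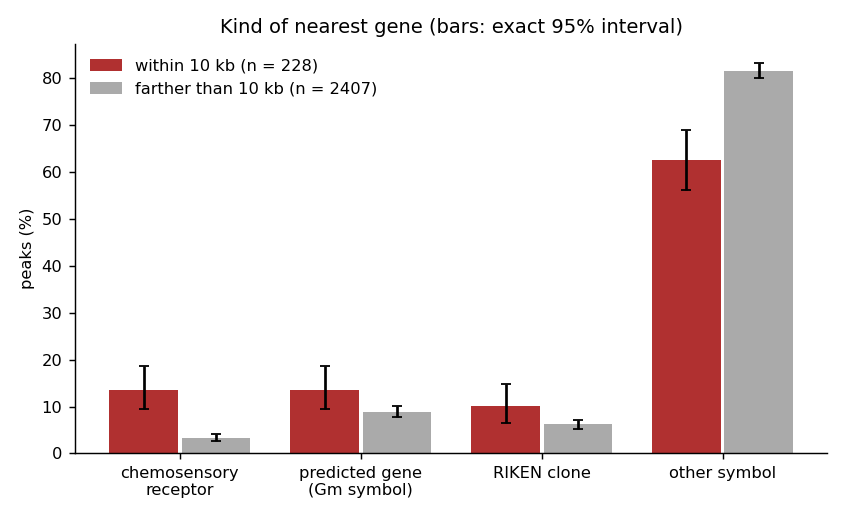
Percentage of peaks by the kind of their nearest gene, for the 228 peaks within 10 kb (red) and the 2407 farther peaks (grey), with exact 95% binomial intervals as error bars. Chemosensory receptors make up 13.6% of the near peaks and 3.32% of the others, while genes with other symbols make up 62.7% and 81.6%.

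The chemosensory peaks were of ordinary strength. Their median fold was 18.42 and their median score 61.07, against 15.62 and 62.77 for the other near peaks, and 17 lay upstream and 14 downstream. The highest-scoring olfactory receptor peaks were at Olfr819 (4086 bp upstream, fold 22.11, score 77.73), Olfr320 (4380 bp upstream, 18.42, 75.28) and Olfr806 (3429 bp downstream, 8.34, 73.87). Between Olfr1100 and Olfr1101 a peak lay 5194 bp from the former and 5183 bp from the latter, with a fold of 22.11. Taar6 had a peak 3034 bp upstream with a fold of 8.96, and the taste receptor Tas2r123 one at 6173 bp with 14.74. The peak at the bitter receptor gene Tas2r134, 771 bp upstream, had a fold of 8.23. These genes have close copies, and reads could be shared between copies.

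A further 4 gene families were put together after genes near peaks had been seen, so their counts are a description and support nothing. Of all peaks, 8.32% were near ones. Class I histocompatibility genes had 3 near peaks of 4 in the whole list, at H2-Q4 and H2-T24. Placental prolactin, pregnancy glycoprotein and related placental genes had 4 of 4, at Prl7c1, Prl3a1, Tpbpa and Psg26, with scores of 58.26 to 70.13. Paired-receptor, lectin, defensin, peptidoglycan recognition and cytokine receptor genes had 7 of 26, led by Defb39 (9534 bp, score 68.90) and Pglyrp1 (9426 bp, score 63.58). Axonemal dynein and tubulin ligase genes had 4 of 8, at Dnahc14, Dnahc7b and, with 2 peaks, Ttll4. Cadherin and protocadherin genes had 0 near peaks against 38 farther ones, and potassium, sodium and calcium channel genes 0 against 29. With 0 of 228, shares of up to 1.60% remain within the exact interval for each. Zinc finger genes had 4 near peaks (1.75%, against 1.5%) and solute carriers 2 (0.877%, against 1.16%). Small GTPases and their regulators had 3, Tmem genes 3, Fam genes 3, and testis families 3. Ubiquitin ligase, cytochrome P450 or monooxygenase, and neurotransmitter receptor genes had 2 each by symbol, while serpin, homeobox and ribosomal protein genes had 1 each. All families here were counted by the form of the symbol, so some members are missed. Gabbr2, a GABA receptor gene, and Hecw1, a ubiquitin ligase gene, each had a near peak that these counts leave out. Keratin, microRNA and small nucleolar or nuclear RNA genes were the nearest gene of no peak, and collagen and Adam genes had 0 near and 13 far. The gene set used for the listing is not known, so genes of small RNAs may not have been in it.

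Of the genes in lists for gut development, AP-1 signalling and related kinds, 3 stood within 10 kb of a peak. In 14 lists with 449 genes, 104 genes were listed at some peak and 3 of them (2.88%) within 10 kb, beside 216 of all 2963 listed names (7.29%). No interval was computed for the 2.88%, so no shortfall is read from it. The bZIP list, which includes the AP-1 subunits, had 2 of 43 genes, Crebzf and Ddit3. Ddit3 encodes the stress-induced factor CHOP, and its peak had a fold of 14.66 and a score of 50.98, near the lower end of the list. The matrix and adhesion list had 1 of 44 (1 of the 14 listed at some peak), the integrin gene Itga6, whose product binds laminin beneath epithelia. Its peak lay 9154 bp upstream at fold 17.59 and score 56.70. No gene had a peak within 10 kb in the lists of the kinase pathway to cJUN (27 genes), known AP-1 targets (32), Hedgehog (21), Wnt (45), BMP and TGF-beta (33), Notch (23) and FGF, EGF and PDGF (32). None did among markers of intestinal epithelium (44), gut mesenchyme and smooth muscle (32), enteric neural crest (25), or endothelium, blood and mesothelium (28), or among cell cycle and housekeeping genes (35). Each list without a near gene had only 3 to 10 genes listed at any peak. With so few list genes near any peak, the lists could not be told apart.

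Some further near genes of known role were picked after their values were seen. Both Arpc2 and Arpc3, subunit genes of the actin-nucleating Arp2/3 complex, had a peak, at 7141 bp downstream (fold 22.11, score 79.24) and 7501 bp upstream (17.59, 67.23). None of these genes, nor Fgf22, is in the lists above. Ier5, an immediate-early response gene, had one 8078 bp upstream with a fold of 14.74. Wls, which carries Wnt ligands to the cell surface, had one 7814 bp upstream at fold 7.18 and score 71.42. Cldn18, a tight junction gene, had one 4192 bp downstream at fold 19.00 and score 76.91. Top1, the DNA topoisomerase I gene, had one 8697 bp upstream with a fold of 17.59. Gpc6, a glypican gene, had one 9284 bp downstream with a fold of 20.03.

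AP-1 motifs were about as frequent in the promoter windows of near genes as in all windows. RefSeq windows were found for 156 of the nearest genes, 178 windows in all. TGANTCA, which reads alike on both strands, was in 14 of them (7.87%, 4.37 to 12.8), beside 2565 of all 32851 windows (7.81%). TGACGTCA, also a palindrome, which cannot overlap the first, was in 2 (1.12%), beside 1.79%. The matches for the former were at Vmn1r158, Vmn1r101, Olfr503, Olfr1166, Prl3a1, Tpbpa, Ddit3, Slc2a9 (a urate transporter gene), Tmprss11d, 9130204L05Rik, AA467197, Gm6531, Gm5600 and a second, more distant start of Fam214b. The latter were at Thada and Trim52. Chemosensory windows had TGANTCA in 4 of 24 (16.7%, 4.74 to 37.4), against 10 of 154 for the others (6.49%, 3.16 to 11.6), and these intervals overlap. Among the 4, the windows of Vmn1r158 and Vmn1r101 are nearly alike in sequence, with matches 220 and 221 bp upstream. The median was 1 CG dinucleotide in chemosensory windows and 10 in the others. Most of these peaks lie kilobases from the windows, so the counts describe the genes and not the bound sequence.

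Near peaks were spread unevenly over the chromosomes. Chromosome 7 held the most, 23 of its 164 peaks (14.0%, 9.10 to 20.3), of which 8 were at chemosensory receptors. Chromosomes 9, 13 and 16 had 14.1, 13.9 and 14.0%. The X chromosome had 6 of 234 (2.56%, 0.947 to 5.50), chromosome 6 had 5 of 199 (2.51%, 0.821 to 5.77) and chromosome 18 had 1 of 94 (1.06%, 0.0269 to 5.79). Over all chromosomes the share was 8.32%.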

How the data were processed

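Chromatin of 1 cJUN immunoprecipitate and 1 input was sequenced. Per the submitters' processing notes, the tools include Bowtie 1.1.0 and MACS 1.4 and the build is mm9. Peak thresholds, read filters and the tool that listed genes are not given in the sources used here. Per the file headers, the deposited table holds position, length, summit, fold, score and 2 nearest genes per peak. The fold is the authors' ratio over background, and the score is the authors' deposited 10 × −log10 p. Both describe peaks within this list only. The base of the start coordinate is not given.

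The nearest gene was the listing of smallest absolute distance. Symbols were matched to RefSeq (GRCm38.p6) for names, biotypes and strand. Shares have exact Clopper-Pearson 95% intervals and medians order-statistic intervals (Python 3.11.15, SciPy 1.17.1). The median intervals and the reading of sides were tested on simulated data, and the share intervals were not. No test between groups was possible with 1 library each. Members and lists were chosen with earlier results of these data known. The text names all peaks within 2 kb, the top 10 by score and by fold (ties by score and fold), 3 on each side of the limit, list genes, genes with several peaks, some peaks with a second gene within 10 kb, and up to 3 examples per family (all genes for the 4 families added later where few). Other choices were made after values were seen. Alternatives changed the limit, the measuring point, score, fold, merging, clusters and gene matching.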

Additional observations from a re-analysis of the deposited data

How the results depend on the processing

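Of 56 recomputed values (7 results under 8 alternatives), 49 stayed within the interval of the main value or, for the count, within 1.5 times it. The number of near peaks, 228, was 74 with a limit of 5 kb, 476 with 20 kb and 140 with a score of at least 60, which follow from the construction. With that score the median fold was 18.34 and the median score 68.19. The protein-coding share, 88.6%, was 94.1% with a fold of at least 10 and 96.2% with listings matched on the same chromosome, the latter because unmatched symbols drop out. With the former, unmatched symbols also drop out in part, as their median fold was 6.15. The upstream share ranged from 54.7 to 57.9% over the 8 alternatives, the chemosensory share, a result chosen after seeing the data, from 12.2 to 16.2%, and the median length from 150 to 152 bp. No paired analysis was possible because each group has 1 library. Without library totals, what depth limits is unknown.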

Other observations

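Many near peaks had identical values. The 5 most frequent folds of the list, 14.74, 17.59, 18.42, 22.11 and 25.79, were carried by 109 of the 228 near peaks (47.8%) and by 55.0% of the farther peaks with a gene. Of the near peaks, 105 (46.1%) shared fold, length and score, to the deposited decimals, with at least 1 other peak of the list, beside 1496 of all 2741 (54.6%). A fold of 14.74 with a length of 155 bp and a score of 57.13 was deposited for 31 peaks, among them those nearest Olfr503, Cdca8 and Gm10985. A fold of 14.74 with 147 bp and 58.82 was deposited for 20, among them those nearest 9130204L05Rik, Tpbpa and Ttpal. Ranks among peaks with such values carry little information.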
